A study of Mus musculus with 40 samples.

Results

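Coch encodes cochlin, a secreted protein of the extracellular matrix, and is 1 of the 54532 genes in the deposited expression table of the mouse uterus. It was selected on its FPKM values in these libraries, which were higher with anti-Müllerian hormone (AMH), so its AMH differences are given as descriptions, with no test. Prepubertal mice, treated around postnatal day 25, received doxorubicin with AMH, doxorubicin, AMH, or PBS or saline as the control. Doxorubicin, an anthracycline that poisons topoisomerase II, was given in 2 weekly doses of 3 mg/kg, and AMH was given at 0.75 mg/kg. Uteri were collected 4 h or 24 h after treatment, with 5 libraries in each of the 8 groups. Because the doxorubicin groups had weekly doses, an effect of the earlier dose and of the last one cannot be told apart. The libraries carry biological replicate numbers, but whether each is from 1 mouse is not stated, so p-values measure the spread between these libraries.

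Cochlin carries an LCCL domain, followed by von Willebrand factor A domains of the kind that bind collagens. It is best known as an abundant matrix protein of the inner ear, where mutations of human COCH cause a progressive loss of hearing and balance, and aggrecanases can release its LCCL domain as a soluble fragment with a role in innate defence. AMH is a hormone of the TGF-beta family that binds the receptor Amhr2 and acts through SMAD1, SMAD5 and SMAD9, the same SMAD proteins that bone morphogenetic proteins (BMPs) use.

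Coch (ENSMUSG00000020953) lies on chromosome 12 at 51593341 to 51605771 on the plus strand of build mm10, and no other gene of the table overlaps it. Its exons add up to 2998 bases. The 250 bases before its start are shown because Coch differed so widely between groups and because AMH acts through SMAD proteins. They were taken from RefSeq (GRCm38.p6, chr12:51593091-51593340, plus strand), with matches to the GC-rich SMAD1/5 motif GGCGCC in capitals.
Coch promoter: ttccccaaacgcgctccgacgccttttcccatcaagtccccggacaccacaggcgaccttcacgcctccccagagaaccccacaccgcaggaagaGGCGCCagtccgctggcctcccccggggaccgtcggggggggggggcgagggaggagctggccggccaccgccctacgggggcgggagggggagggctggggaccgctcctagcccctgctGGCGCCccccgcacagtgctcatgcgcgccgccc
The motif reads the same on both strands and occurs at 2 places, from -155 to -150 and from -34 to -29 relative to the start, and the matches do not overlap. At least 1 such match was found in 9.59% of the 32851 promoters in the RefSeq table, and 2 or more in 1.43%. The Coch promoter is rich in G and C, at 74.8% against a median of 52.4% for all promoters, and 95.8% of promoters had less. The motif GGCGCC is itself all G and C, and its share among promoters of like composition was not computed. The palindromic SMAD motif GTCTAGAC, present in 0.167% of promoters, and the full palindromic oestrogen response element, present in 0.0639%, were not found among these 250 bases. These matches describe the sequence; binding was not measured.

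Reads in genes, rebuilt from the deposited FPKM values (fragments divided by the length of the gene and the size of the library), numbered between 16251563 and 27391049 in each library. The tests covered the 16226 genes with at least 1 FPKM in at least 5 libraries. All listed markers of uterine stroma (14), smooth muscle (10) and uterine epithelium (14) passed this filter. Libraries within groups differed in a score of 25 oestrogen-responsive uterine genes, the mean of their log2(FPKM + 1). Libraries whose score exceeded the median over the 40 libraries by more than 0.6 are called high-oestrogen below. They were AMH 24 h library 3, control 4 h library 1 and control 24 h libraries 1, 2 and 4. Without them the control group at 24 h keeps only libraries 3 and 5. The control 24 h libraries left out were the lowest of their group in Coch. Markers of oviduct and ciliated cells exceeded their own median by more than 1 in doxorubicin + AMH 4 h library 5, doxorubicin 4 h libraries 3 and 4, control 4 h libraries 4 and 5, doxorubicin + AMH 24 h library 4 and doxorubicin 24 h libraries 3, 4 and 5.

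Coch was well expressed and highly variable. Its mean over the 40 libraries was 29.5 FPKM, which placed it at rank 1630 of 13422 protein-coding genes that passed the filter. The highest library held 101 FPKM and the lowest 0.136 FPKM, a ratio of 741. The lowest value rested on 6 reads, and the highest on 6585.

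At 4 h the groups with AMH stood above those without it. Coch was at 22.2, 34.4, 21.4, 21.7 and 37.7 FPKM in doxorubicin + AMH libraries 1 to 5 (27.5 ± 7.92, mean ± SD, n = 5). The doxorubicin libraries held 15.8, 11.5, 14.1, 7.82 and 11.4 FPKM (12.1 ± 3.02, n = 5). Each doxorubicin + AMH library was thus above each doxorubicin library. The AMH libraries held 46.8, 60.5, 61.1, 71.7 and 73.6 FPKM (62.7 ± 10.7, n = 5), against 5.55, 6.44, 12.6, 5.34 and 12.6 FPKM in the controls (8.52 ± 3.78, n = 5). The AMH group was the highest at 4 h and overlapped with no other group of that time, while the doxorubicin and control groups overlapped.

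At 24 h the same groups were spread far more widely. Coch was at 101, 68.1, 87.7, 14.4 and 44.1 FPKM in doxorubicin + AMH libraries (63.1 ± 34.6, n = 5), and at 16.0, 56.1, 34.0, 11.6 and 9.26 FPKM in doxorubicin libraries (25.4 ± 19.7, n = 5). The AMH libraries ranged over 80.3, 21.1, 1.45, 14.3 and 31.5 FPKM (29.7 ± 30.3, n = 5), against 1.68, 0.136, 19.1, 0.834 and 12.3 FPKM in the controls (6.82 ± 8.49, n = 5). Every pair of groups overlapped at 24 h. The low AMH value of library 3 and the low control values of libraries 1, 2 and 4 came from high-oestrogen libraries. On the log2(FPKM + 1) scale, the SD was 1.10, 1.04, 1.86 and 1.82 in the doxorubicin + AMH, doxorubicin, AMH and control groups at 24 h, against 0.39, 0.35, 0.26 and 0.56 in the same groups at 4 h.

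**Figure D1:**
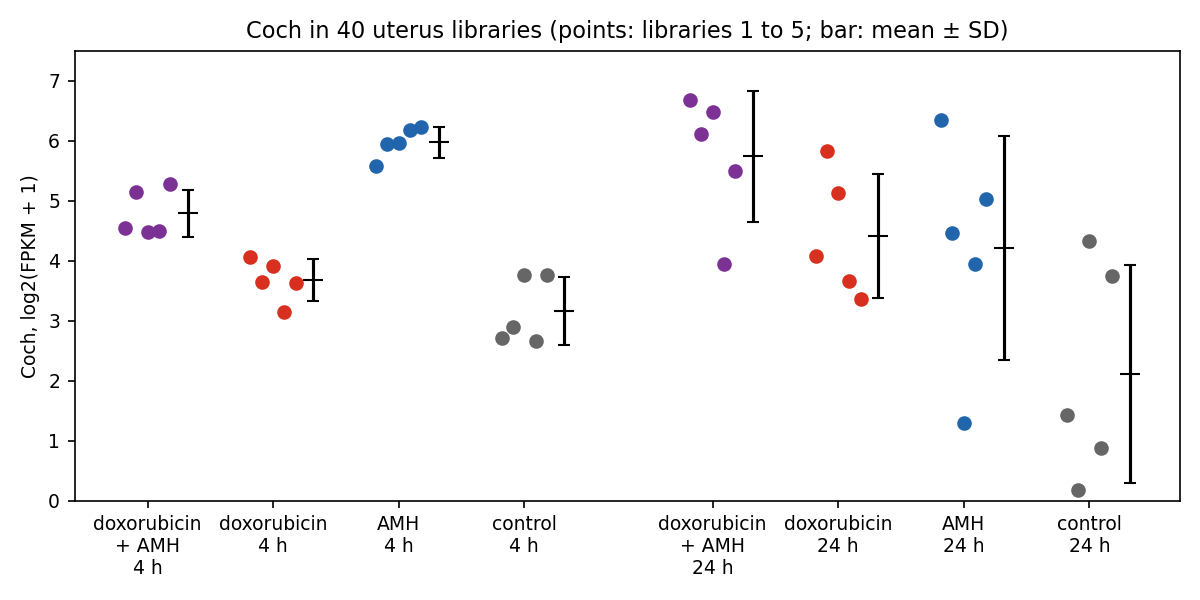
Coch in each of the 40 libraries as log2(FPKM + 1), with libraries 1 to 5 as points and the mean ± SD of each group as a bar (n = 5). The AMH libraries stand above all others at 4 h with an SD of 0.26, and the 24 h groups spread over each other, with SDs of 1.04 to 1.86.

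Ordered by mean, Coch was highest in doxorubicin + AMH at 24 h, followed by AMH at 4 h, AMH at 24 h, doxorubicin + AMH at 4 h, doxorubicin at 24 h, doxorubicin at 4 h, control at 4 h and control at 24 h. Neighbours in this order overlapped in their library values in each case. By median, doxorubicin + AMH at 4 h (22.2 FPKM) and AMH at 24 h (21.1 FPKM) changed places and the rest of the order stayed.

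The differences between groups with and without AMH were large at both times and are descriptions only. At 4 h the AMH group was 2.81 ± 0.67 above control on the log2(FPKM + 1) scale (difference ± SE, the SE pooled over all 8 groups), and all 25 pairs of an AMH and a control library had the AMH library higher. This was the largest positive difference among the 16226 genes tested, with Inmt next at 2.40. A total of 9.13% of all genes were called higher in this comparison. At 24 h the AMH group was 2.10 ± 0.67 above control, the third highest difference, and the AMH library was higher in 21 of 25 pairs. With only the 2 groups compared in the fit, the SE was 0.24 at 4 h and 1.03 at 24 h. A total of 0.191% of all genes were called higher in AMH at 24 h. Without the high-oestrogen libraries the 24 h difference was 0.91, at rank 86, whereas the 4 h difference was 2.70, still at rank 1. Only control libraries 3 and 5 then remained at 24 h. The ranks depended on the scale. With a pseudocount of 0.1 the rank was 10 at 4 h and 13 at 24 h, and with voom on rebuilt counts it was 17 at 4 h and 13 at 24 h, while the differences of Coch itself were larger on both scales.

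Against doxorubicin alone, Coch was also higher with AMH added, by a smaller amount. Doxorubicin + AMH lay 1.11 ± 0.67 above doxorubicin at 4 h (rank 18) and 1.33 ± 0.67 above it at 24 h (rank 5). The SE with only these 2 groups in the fit was 0.21 at 4 h and 0.58 at 24 h. The doxorubicin + AMH library was higher in all 25 pairs at 4 h and in 21 of 25 at 24 h. In these comparisons 0.00616% and 0.129% of all genes were called higher. With a pseudocount of 0.1 the ranks were 181 at 4 h and 119 at 24 h, and with voom they were 167 and 89. Without the libraries high in oviduct markers, the differences were 0.89 ± 0.84 at 4 h (rank 93) and 1.23 ± 0.95 at 24 h (rank 41). Only doxorubicin libraries 1 and 2 then remained in the doxorubicin group at 24 h. Whether the AMH difference depended on doxorubicin was not tested for Coch, since both differences helped to choose it. Set against control, doxorubicin + AMH lay 1.63 ± 0.67 higher at 4 h (rank 11) and 3.63 ± 0.67 higher at 24 h, where Coch was again the gene with the largest positive difference. The calls in the higher direction covered 0.216% and 15.7% of all genes. Without the high-oestrogen libraries the 24 h difference was 1.71, at rank 13. With a pseudocount of 0.1 these ranks were 106 at 4 h and 2 at 24 h, and with voom they were 116 and 5. These comparisons share control and treated libraries, so their values are not independent of each other.

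Doxorubicin alone was set against the same control libraries as AMH. Those libraries helped to choose Coch, which had to be low in them, so the p-values below are no independent evidence. At 24 h Coch averaged 25.4 FPKM in doxorubicin libraries against 6.82 FPKM in controls, a difference of 2.30 ± 0.67 on the log2 scale (limma, adjusted p = 0.019). The doxorubicin library was higher in 20 of 25 pairs, and 8.44% of all genes were called higher in this comparison. Without the high-oestrogen libraries, which leaves only control libraries 3 and 5, the difference was 0.38 (adjusted p = 0.86). The exact two-sided permutation test of 5 against 5 libraries gave p = 0.071. The adjusted p also exceeded the threshold of 0.05 on leaving out 1 library, namely doxorubicin library 2 (1.95, adjusted p = 0.065) or 3 (2.12, adjusted p = 0.060), or control library 1 (2.13, adjusted p = 0.065), 2 (1.82, adjusted p = 0.085) or 4 (1.99, adjusted p = 0.069). With only 24 h libraries in the fit its adjusted p was 0.12.

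At 4 h doxorubicin differed from control by 0.52 ± 0.67, which did not pass the test (adjusted p = 0.81), and 0.388% of all genes were called higher. The difference between the doxorubicin effects at 24 h and 4 h was 1.79 ± 0.94 (adjusted p = 0.52), so the effects were not shown to differ between the times.

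Doxorubicin was also compared within AMH-treated mice, against the AMH libraries that helped to choose Coch. At 4 h the doxorubicin + AMH libraries averaged 27.5 FPKM, against 62.7 FPKM in AMH libraries, and all 25 pairs had the doxorubicin + AMH library lower. The difference of -1.19 ± 0.67 did not pass in the limma fit over all 8 groups (adjusted p = 0.52; 0.173% of genes called lower), whose pooled SE takes in the wide 24 h spread. Since Coch had to be high in the AMH libraries to be chosen, this order is a description. At 24 h the sign was the other way: doxorubicin + AMH was 1.53 ± 0.67 above AMH, which did not pass (adjusted p = 0.31; 0.0555% of genes called higher).

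Between 4 h and 24 h no group passed the limma test for Coch, in libraries that had likewise helped to choose it. The AMH group at 24 h was lower than at 4 h by the most, with a difference of -1.76 ± 0.67 (adjusted p = 0.099; 1.53% of genes called lower) and means of 29.7 FPKM at 24 h and 62.7 FPKM at 4 h. Leaving out AMH 24 h library 1, the highest of its group, gave -2.30 (adjusted p = 0.023), and leaving out library 3, the lowest, gave -1.03 (adjusted p = 0.44). The control group differed by -1.05 (adjusted p = 0.35; 3.04% called lower), and by 0.76 in the other direction without the high-oestrogen libraries (adjusted p = 0.59). Doxorubicin + AMH was higher at 24 h by 0.95 (adjusted p = 0.81; 0.0555% called higher) and doxorubicin by 0.73 (adjusted p = 0.64; 0.857% called higher).

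Genes of the AMH and BMP pathway were examined beside Coch. Of the 38 listed genes 36 were measured, and 10 rose and 0 fell with AMH against control at 4 h, with a median difference of 0.24 against 0.01 over all genes. For comparison, 9.13% of all genes were called higher. The 10 were the AMH receptor gene Amhr2, the signal transducers Smad5 and Smad9, the SMAD target genes Id2, Id3, Id4 and Atoh8, the ubiquitin ligase gene Smurf1, the BMP co-receptor gene Rgmb and the ligand gene Bmp4. Smad9 differed most, with 2.74, 3.37, 3.05, 2.97 and 2.71 FPKM in AMH libraries against 0.284, 0.806, 0.426, 0.364 and 0.671 FPKM in controls (difference 1.40 ± 0.15, limma adjusted p = 3.2e-07). The AMH and control groups of Smad9 did not overlap at 4 h, as was the case for Coch. Atoh8 rose by 1.23 ± 0.22 (limma adjusted p = 0.0026) and Amhr2 by 0.90 ± 0.28 (limma adjusted p = 0.021). Id1, a classic BMP target, differed by -0.43 and was not called.

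At 24 h, 4 of the 36 genes rose with AMH (Smad9, Smad6, Id2 and Id3) and 0 fell, with a median difference of 0.12 against -0.01 over all genes, of which 0.191% were called higher. Smad6 is an inhibitor of the pathway. Without the high-oestrogen libraries 0 were called. The count was also 0 without AMH 24 h library 2 or 4 or control 24 h library 2 or 4, 1 without control library 1, 2 without AMH library 1 or 5, 6 without control library 5, 10 without control library 3 and 11 without AMH library 3. With doxorubicin in both groups, 0 genes were called at 4 h by limma and 0 by voom, with 6 at an unadjusted p under 0.05 and a median of 0.05 against 0.01 over all genes, of which 0.00616% were called higher. In that comparison 6.92% of all genes had an unadjusted p under 0.05, and Smad9 differed by 0.77 and Id2 by 0.61. At 24 h, 1 gene rose, Id4 (0.61 ± 0.12, limma adjusted p = 0.018), while 0.129% of all genes were called higher. The count was 0 without doxorubicin + AMH library 2 or 5 or doxorubicin library 4, and 2 without doxorubicin library 5.

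**Figure D2:**
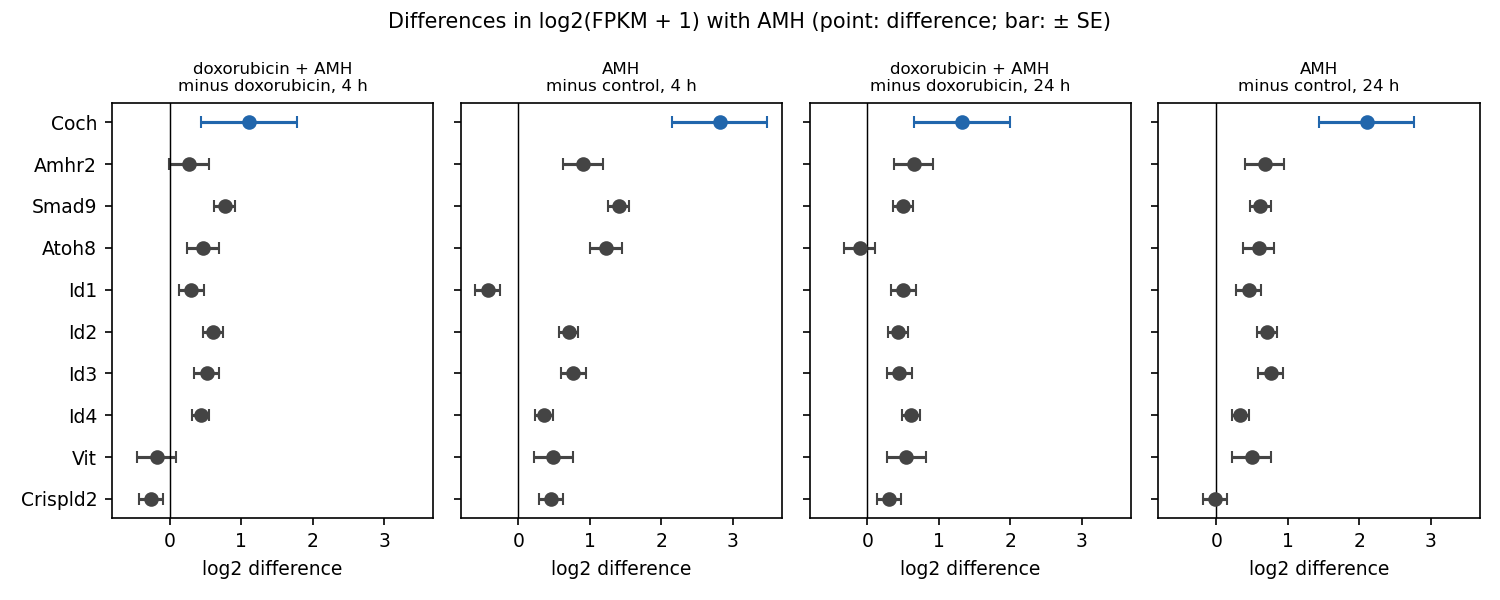
Differences in log2(FPKM + 1) of Coch, 7 AMH or BMP pathway genes and 2 further LCCL-domain genes in the 4 comparisons that add AMH, with bars of ± 1 SE. Coch lies farthest right in each panel, at 1.11, 2.81, 1.33 and 2.10 from left to right, with the widest bars. The SE is pooled over all 8 groups, so the bars do not show the wider spread of Coch at 24 h than at 4 h.

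The other mouse genes listed with an LCCL domain were expressed in the uterus as well. None of the 5 (Vit, Crispld1, Crispld2, Dcbld1 and Dcbld2) was called in any of the 4 comparisons that add AMH, with limma median differences of -0.18 at 4 h and 0.17 at 24 h for doxorubicin + AMH against doxorubicin, and of 0.06 at 4 h and -0.01 at 24 h for AMH against control. Limma called 9.13% of all genes higher and 10.9% lower for AMH against control at 4 h. In the other comparisons that add AMH it called 0.00616% to 0.191% higher. For AMH against control, 1 of the 5 at 4 h and 2 at 24 h had an unadjusted p under 0.05 in limma, and voom called 1 at 4 h and 0 at 24 h. The share of all genes called by voom was not computed. For doxorubicin + AMH against doxorubicin these counts were 0 at both times. Of all 16226 genes, 5797 at 4 h and 3058 at 24 h had an unadjusted p under 0.05 for AMH against control, and 1123 and 2017 did for doxorubicin + AMH against doxorubicin. From library to library within groups the mean score of the 5 genes had an r of 0.50 with Coch (permutation p = 0.033, adjusted over 17 lists 0.094), and of 0.26 without the high-oestrogen libraries. Vit, whose product vitrin has the same domain order as cochlin, had a median of 16.9 FPKM (13.4 to 21.1) in AMH libraries against 10.5 FPKM (10.3 to 17.5) in controls at 4 h (n = 5 each; difference 0.49, limma adjusted p = 0.20). Crispld2, the most abundant of them, averaged 45.8 ± 4.05 FPKM in AMH libraries against 33.1 ± 3.11 FPKM in controls (difference 0.46, limma adjusted p = 0.0502).

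Of the aggrecanase genes, 6 of 8 were measured, and limma called 0 in the same 4 comparisons. Of all genes, 0.00616% to 9.13% were called higher in them. For AMH against control, 1 at 4 h and 2 at 24 h had an unadjusted p under 0.05, and voom called 1 at 4 h and 0 at 24 h. For doxorubicin + AMH against doxorubicin the unadjusted counts were 0 at 4 h and 1 at 24 h, and voom called 0. Of all genes, 35.7% at 4 h and 18.8% at 24 h had an unadjusted p under 0.05 for AMH against control. The shares were 6.92% and 12.4% for doxorubicin + AMH against doxorubicin. Adamts4, which can cleave cochlin, averaged 3.42 ± 0.66 FPKM in AMH libraries against 3.85 ± 0.95 FPKM in controls at 4 h. Among secreted matrix proteins with von Willebrand factor A domains, 15 of 21 were measured. With AMH at 4 h 1 rose, Vwf (0.64, limma adjusted p = 0.012), and 4 fell, the collagens Col6a2, Col6a3, Col6a5 and Col12a1. Of all genes, 9.13% were called higher and 10.9% lower. Col6a3 fell by 1.37 on the log2 scale (limma adjusted p = 0.0055).

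Cochlin is also known from the inner ear and from follicular dendritic cells of lymphoid follicles. Of 17 genes for inner ear matrix, 3 passed the filter. Limma called 1 of these 3 higher with AMH against control at 4 h, where 9.13% of all genes were called higher. It called 0 of them in the other comparisons that add AMH. Of 9 follicular dendritic cell genes 5 passed, namely Cxcl13, Mfge8, Clu, Fcgr2b and Ltbr, and group means of their score lay between 3.47 and 3.90. With AMH against control at 4 h Mfge8 rose by 0.38 (limma adjusted p = 0.045), and Clu and Ltbr fell by 0.72 and 0.33 (limma adjusted p = 0.028 and 0.016). Of all genes, 9.13% were called higher and 10.9% lower in that comparison. None of the 5 was called in the other 3 comparisons that add AMH by limma or voom, with 0 or 1 at an unadjusted p under 0.05. In those comparisons 0.00616% to 0.191% of all genes were called higher, and 6.92% to 18.8% had an unadjusted p under 0.05. The defining markers Cr2 and Fcer2a averaged at most 0.115 and 0.0805 FPKM in any group. Because the tissue was sequenced in bulk, more cells with Coch and more Coch RNA per cell cannot be told apart.

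The genes named here on both sides of Coch differed less with AMH than Coch did. Coch was chosen for a large AMH difference, so this order is a description and no test. Strn3, whose end lies 3.86 kb from Coch, averaged 11.6 FPKM with AMH and 11.3 FPKM in controls at 4 h (difference 0.04, limma adjusted p = 0.79). The genes were Prkd1, G2e3 and Scfd1 on one side and Strn3 and Ap4s1 on the other. Of them Scfd1 alone was called in the comparisons that add AMH, falling by 0.43 at 4 h against control (limma adjusted p = 0.0090). Of all genes, 10.9% were called lower there.

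Coch moved with several marker scores from library to library. It also moved with many genes outside these lists. Over the 40 libraries, 10.9% of other genes had r of 0.8 or more or -0.8 or less with it. The p-values of the scores are against no relation. Scores of other genes were not set beside them, so the relations are not shown to be particular to these markers. Over deviations from the group means in all 40 libraries, Coch was lower where the score of oestrogen-responsive genes was higher (r = -0.84, rho = -0.74; permutation p = 2e-05 and 5e-05, p for r adjusted over 17 lists 0.00017). Without the 2 most distant libraries r was -0.79. Within the 20 libraries of 24 h r was -0.88, and within the 20 of 4 h it was -0.50. Over the 35 libraries left without the high-oestrogen ones, a check chosen after seeing the data, r was -0.59. In the same way Coch was higher with the endothelial score (r = 0.84, rho = 0.80; permutation p = 1e-05 for both, the smallest that 100000 resamples give, adjusted p for r 0.00017). Without the 2 most distant libraries r was 0.79; it was 0.95 within 24 h and 0.22 within 4 h. Over the 35 libraries r was 0.72, and the relation with endothelium did not hold at 4 h.

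The AMH and BMP score followed Coch less closely (r = 0.73, rho = 0.60; permutation p = 7e-04 and 0.001, adjusted p for r 0.004; 0.63 without the 2 most distant libraries), with r = 0.81 within 24 h, 0.02 within 4 h and 0.38 over the 35 libraries. The epithelial score was lower where Coch was higher (r = -0.69, rho = -0.54; permutation p = 0.002 and 0.0042, adjusted p for r 0.0087; -0.59 without the 2 most distant libraries), with r = -0.76 within 24 h, -0.15 within 4 h and -0.24 over the 35 libraries. These 2 relations thus did not hold at 4 h and were weaker without the high-oestrogen libraries, a check chosen after seeing the data. Within 24 h without those libraries r was 0.52 for the AMH and BMP score and -0.32 for the epithelial score. For the other 13 lists r lay between -0.43 and 0.50 and did not pass the adjustment.

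These scores also moved with AMH itself. At 4 h the oestrogen-responsive score ranged over 3.56 to 4.16 in AMH libraries against 4.25 to 4.99 in controls, without overlap. With AMH at 4 h, 6 of the 25 measured genes fell and 0 rose (median -0.85), while all genes had a median of 0.01 and 10.9% of them were called lower. At 24 h limma called 0 of the 25 and voom 0, with 14 at an unadjusted p under 0.05 and a median of -0.71. At that time 18.8% of all genes had an unadjusted p under 0.05, and their median was -0.01. Among the 6 that fell at 4 h, the growth factor gene Igf1 fell by 1.55 (limma adjusted p = 0.0051). The secreted lipocalin gene Lcn2 fell by 2.33 at 4 h (limma adjusted p = 0.044). The endothelial score ranged over 3.95 to 4.32 in AMH libraries against 3.73 to 3.91 in controls at 4 h. Of its 10 genes 2 rose at 4 h and 0 fell, namely Cldn5 of endothelial tight junctions (by 1.41, limma adjusted p = 0.0066) and Vwf, where 9.13% of all genes were called higher. At 24 h limma called 0 of the 10 and voom 0, with 2 at an unadjusted p under 0.05 and a median of 0.27. The same 18.8% of all genes is the share to set beside these 2, and limma called 0.191% of all genes higher. AMH library 1 and control library 5 were nearest in oestrogen-responsive score at 4 h, at 4.16 and 4.25, and held 46.8 and 12.6 FPKM of Coch. At 24 h the nearest were AMH library 3 and control library 4, at 5.49 and 5.48, with 1.45 and 0.834 FPKM. AMH library 2 and control library 5, at 4.40 and 4.37, held 21.1 and 12.3 FPKM at 24 h. AMH library 1 and control library 3, at 3.91 and 4.00, held 80.3 and 19.1 FPKM at 24 h. Each pair rests on single libraries and is a description. The part of these scores in the AMH difference of Coch was not tested.

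**Figure D3:**
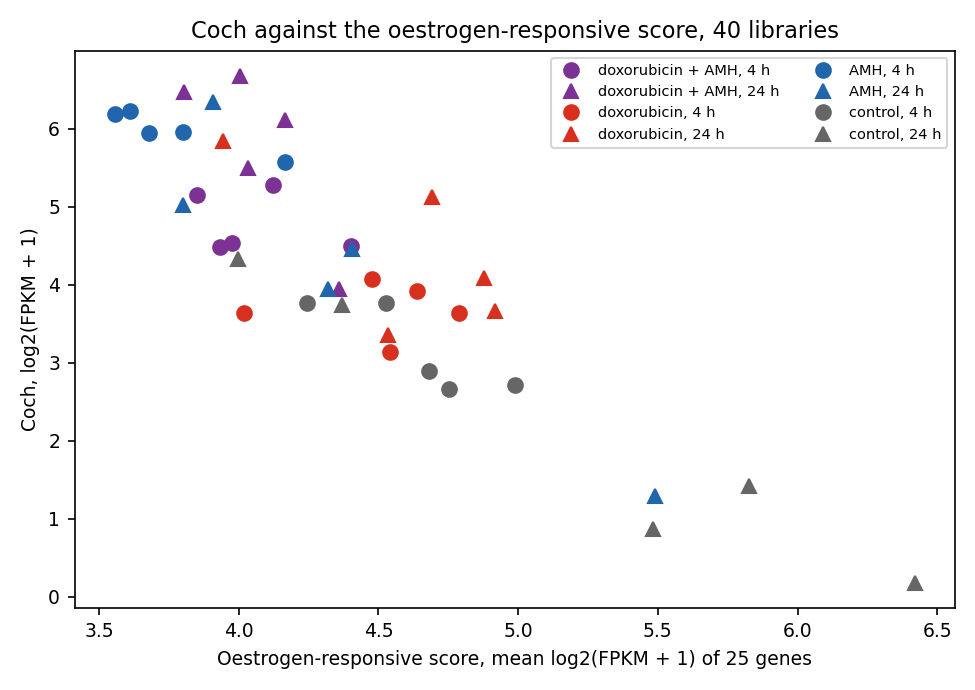
Coch as log2(FPKM + 1) against the oestrogen-responsive score, the mean log2(FPKM + 1) of 25 genes, with a point for each of the 40 libraries (circles 4 h, triangles 24 h). The AMH 24 h library and the 3 control 24 h libraries at the lower right hold 1.45 FPKM, and 1.68, 0.136 and 0.834 FPKM of Coch.

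Many genes varied with Coch. Over the 40 libraries 722 of 16225 other genes had r of 0.8 or more with it and 1050 had r of -0.8 or less, 10.9% in all. Coch also correlated with the first principal component (r = 0.96 in size), which held 28.4% of the variance. These correlations are descriptions over libraries that share their groups, and no p is given.

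The 12 genes most like Coch over the 40 libraries were Mill2, Igfbp3, C1ra, Vamp4, Cyp2d22, Smg6, Sorbs3, Fmo2, Wfikkn2, Smarca2, 6330403K07Rik and Crebl2, with r between 0.94 and 0.95. Igfbp3 encodes a secreted binding protein for insulin-like growth factors. At 24 h it was at 414, 405, 406, 101 and 288 FPKM in doxorubicin + AMH libraries and at 255, 363, 228, 178 and 94.6 FPKM in doxorubicin libraries. Its AMH libraries held 402, 187, 24.4, 147 and 274 FPKM at 24 h, against 63.4, 23.6, 268, 27.5 and 155 FPKM in controls. As with Coch, doxorubicin + AMH library 4, AMH library 3 and control libraries 1, 2 and 4 were the low ones. Wfikkn2, which encodes a secreted inhibitor of TGF-beta family ligands such as myostatin, was at 1.66 FPKM in AMH 24 h library 3 and at 17.9 to 24.5 FPKM in AMH 4 h libraries.

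By the 8 group means alone, the genes most like Coch were Thap3, 2900026A02Rik, Gm43534, Clcf1, 6330403K07Rik and Cbx7 (r = 0.99 each). By deviations within groups they were Igfbp3, Wfikkn2, Ablim1, Smarca2, Mill2 and Enpp2, with r of 0.93 to 0.95. Enpp2, which encodes the secreted enzyme autotaxin, averaged 45.7 ± 4.93 FPKM in AMH libraries against 14.3 ± 4.03 FPKM in controls at 4 h (n = 5 each), again without overlap. Igfbp3, Wfikkn2, Smarca2 and Mill2 were on both the list over libraries and the list within groups.

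**Figure D4:**
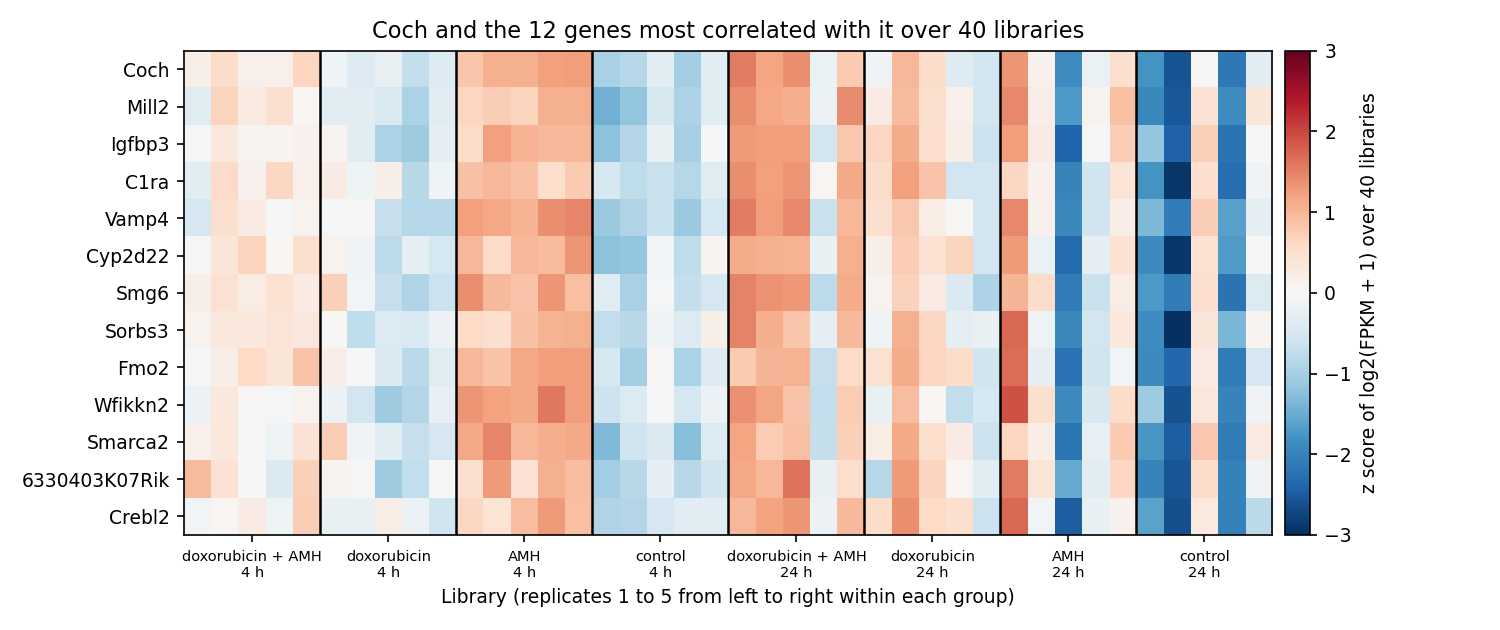
Coch and the 12 genes most correlated with it, as z scores of log2(FPKM + 1) over the 40 libraries, with libraries 1 to 5 of each group from left to right. The AMH 4 h block is high throughout, and AMH 24 h library 3 and control 24 h libraries 1, 2 and 4 are the lowest columns.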

How the data were processed

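Expression was measured by bulk RNA-seq of the uterus in 40 libraries. The authors deposited 1 table of FPKM values with gene names, gene positions and gene lengths. Per the submitters' processing notes the build was mm10. How reads were aligned and counted, whether by strand, and with which annotation is not given in the sources used here. FPKM times gene length came out as whole reads for 100% of values (tolerance 0.01 reads).

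Coch, its gene lists and the alternatives were chosen with earlier results of these data known. Values were taken as log2(FPKM + 1) and fitted by limma 3.58.1 (R 4.3.3) over all 8 groups, with 32 residual degrees of freedom. Two-sided p-values had Benjamini-Hochberg adjustment over 16226 genes in each comparison (threshold 0.05), and a gene that passed rose or fell. The pseudocount of 1 understates changes of low genes. Named genes were Coch, the genes most like it, its 3 nearest tested neighbours on each side, called AMH and BMP pathway genes with fixed members called or not, the LCCL-domain and 3 aggrecanase genes, and called members of the other lists, of which examples are printed. Values of 1 gene taken by this rule are not reported here. The genes next to Coch in rank were named after their values were seen. Alternatives were the pseudocount, filters, scaling, voom on rebuilt counts, array weights, the groups in the fit, a replicate block, exact permutation and leaving out libraries. The fit was tested on simulated data. Figures were drawn with matplotlib 3.10.9.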

Additional observations from a re-analysis of the deposited data

Results flagged for a closer look

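No group of 5 held a Coch library that stood apart by the gap to its nearest neighbour relative to the range of its group (critical value 0.71). Among the other genes with printed values, 14 of the 184 groups examined held such a library, where chance flags about 1 in 20 groups. The AMH receptor gene Amhr2 was highest at 8.18 FPKM in doxorubicin 4 h library 4 and at 8.09 FPKM in doxorubicin 24 h library 5, both of them libraries with high oviduct markers. Mill2, the gene most like Coch, was lowest at 6.37 FPKM in doxorubicin 4 h library 4 and at 10.1 FPKM in doxorubicin + AMH 24 h library 4, where Coch was also the lowest of its group. Of the pathway genes, Id4 was lowest at 27.5 FPKM in doxorubicin + AMH 4 h library 1, and Id2 was highest at 74.5 FPKM in doxorubicin + AMH 24 h library 3. Of the LCCL-domain genes, Crispld1 was highest at 11.4 FPKM in doxorubicin + AMH 4 h library 1. Vit was highest at 18.5 FPKM in doxorubicin 4 h library 1 and at 17.5 FPKM in control 4 h library 5. Dcbld1 was lowest at 0.875 FPKM in AMH 4 h library 1 and at 0.492 FPKM in doxorubicin 24 h library 4, and highest at 1.54 FPKM in control 24 h library 4. Of the matrix and protease genes, Col6a3 was highest at 136 FPKM in AMH 24 h library 3, the AMH library with the lowest Coch, and Adamts4 was lowest at 3.47 FPKM in AMH 24 h library 1, the AMH 24 h library with the highest Coch.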

How the results depend on the processing

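For Coch the 6 AMH differences stayed positive under every alternative run, the direction its choice favours. The cause of the changes below was not tested. Without the high-oestrogen libraries, Coch in doxorubicin + AMH against control at 24 h was 1.71, in doxorubicin against control at 24 h 0.38, and in control at 24 h against 4 h 0.76, the reverse sign. The doxorubicin difference at 24 h (2.30, adjusted p = 0.019) also did not pass with only the 2 groups compared (2.30, adjusted p = 0.16), with only libraries of the same time (2.30, adjusted p = 0.12, chosen after seeing the data) and in the exact permutation test (2.30, p = 0.071). Its adjusted p ranged from 4.2e-05 (array weights) to 0.86. Array weights passed the threshold for AMH at 24 h against 4 h (-1.54), control at 24 h against 4 h (-1.63), doxorubicin + AMH at 24 h against 4 h (1.32) and doxorubicin + AMH against AMH at 24 h (1.62) and at 4 h (-1.24). The last also passed with only the 2 groups, with same-time libraries and by exact permutation (-1.19 each), and AMH at 24 h against 4 h did by exact permutation (-1.76, p = 0.048). The libraries in these comparisons helped to choose Coch, so none of these calls is independent evidence. Leaving out 1 library at a time gave 1.82 to 2.86 for doxorubicin against control at 24 h and -2.30 to -1.03 for AMH at 24 h against 4 h. The number of AMH and BMP genes called for AMH against control at 4 h was 22 with only the 2 groups, 20 with array weights and 16 with same-time libraries (7 to 12 without 1 library). At 24 h it was 2 without a filter or without the high-oviduct libraries, 14 with array weights, 0 with only the 2 groups, with same-time libraries or without the high-oestrogen libraries, and 0 to 11 without 1 library. For doxorubicin + AMH against doxorubicin at 24 h it was 0 with only the 2 groups, with same-time libraries or without the high-oviduct libraries, 9 with array weights, 3 without the high-oestrogen libraries, and 0 to 2 without 1 library. At 4 h it was 2 with array weights, with same-time libraries or without the high-oestrogen libraries, and 0 to 1 without 1 library. Same-numbered libraries did not pair: 46 of 140 such pairs had correlated deviations above 0.1, the lowest correlation was -0.71, and the mean was 0.03. With the replicate number as a block, doxorubicin against control at 24 h stayed at 2.30 (adjusted p = 0.021), and the block changed no call of Coch. Depth limits only the lowest Coch values, such as the 6 reads of control 24 h library 2.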
